A study of Mus musculus with 16 samples.

Results

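The embryonic sarcomere genes are 5 genes, Myh3, Myh8, Myl4, Tnnt2 and Actc1, out of 18194 genes measured on these mouse arrays. They were chosen by name, as every probe set (a group of short probes read as 1 value) whose annotation gave 1 of these symbols alone, and 8 probe sets met that rule. Gastrocnemius muscle of male mice aged 2 months was measured in 6 groups of 2 arrays, and cells of C2C12, a mouse myoblast line, on 4 single arrays. The first array set held wild-type C57BL/6J muscle, muscle of dystrophin-deficient mdx mice (C57BL/10J), muscle of Galgt2 transgenic C57BL/6J mice and muscle of Galgt2 transgenic mdx mice, a cross of C57BL/10J and C57BL/6J. The second set held mdx muscle treated with an adeno-associated virus (AAV) carrying Galgt2 and the opposite, mock-treated muscle given PBS, so all of its arrays carried the mdx mutation (C57BL/10J). The third set held C2C12 cells and C2C12 cells stably transfected with Galgt2, each labelled as myoblasts and as myotubes. Galgt2 is the older name of B4galnt2, a glycosyltransferase that adds N-acetylgalactosamine to surface glycans. The labels give neither the promoter of the transgene, nor whether 2 arrays of a group are separate mice, nor which AAV and PBS muscles share a mouse, so the spread behind each p-value is that between these arrays, which may be technical. Apart from the comparison of Galgt2 transgenic with wild-type muscle and that of AAV with PBS, substrain differs between groups and cannot be told apart from genotype.

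Sarcomeres are built from different gene family members before and after birth. In the embryo and around birth, thick filaments hold the embryonic heavy chain Myh3 and the perinatal heavy chain Myh8 together with the embryonic and atrial light chain Myl4, and thin filaments hold the cardiac forms of troponin T (Tnnt2) and of alpha actin (Actc1). Adult limb muscle replaces them with adult myosins, Myl1, Tnnt3 and Acta1. The developmental forms return in regenerating fibres and are widely used as markers of regeneration in dystrophic muscle. Tnnt2 and Actc1 stay active in the adult heart and Myl4 in the adult atrium. In bulk muscle, more fibres that express a gene and more RNA per fibre cannot be told apart.

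The genes lie in 4 places of the mouse genome (GRCm38.p6, RefSeq). Myh3 (chr11:67078273-67102291) and Myh8 (chr11:67277124-67308634) both lie in the skeletal myosin heavy chain cluster, with the adult genes Myh2, Myh1 and Myh4 between them, and Myl4 (chr11:104546017-104587215) is on the same chromosome. Tnnt2 lies at chr1:135836315-135852268 and Actc1 at chr2:114047282-114052875. RefSeq promoter windows, 250 bases before to 50 bases after a start site, were supplied for all 5 genes, 6 windows in all because Tnnt2 has 2. One window per gene is shown 5′ to 3′ because Myh3, Myh8, Myl4 and Tnnt2 moved together in muscle while Actc1 did not. Capitals mark matches to the E-box CANNTG (bound by myogenic helix-loop-helix factors), MCAT (CATTCC), the TATA box (TATAAA), MEF2 and the CArG box (bound by serum response factor), searched on both strands.
Myh3, chr11:67078050-67078349, plus strand: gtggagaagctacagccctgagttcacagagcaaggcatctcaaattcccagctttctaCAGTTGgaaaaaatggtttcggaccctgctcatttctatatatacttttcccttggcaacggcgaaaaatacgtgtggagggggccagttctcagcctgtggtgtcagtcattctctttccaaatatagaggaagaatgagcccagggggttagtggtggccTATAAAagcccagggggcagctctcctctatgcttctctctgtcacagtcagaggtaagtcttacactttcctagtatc
Myh8, chr11:67276874-67277173, plus strand: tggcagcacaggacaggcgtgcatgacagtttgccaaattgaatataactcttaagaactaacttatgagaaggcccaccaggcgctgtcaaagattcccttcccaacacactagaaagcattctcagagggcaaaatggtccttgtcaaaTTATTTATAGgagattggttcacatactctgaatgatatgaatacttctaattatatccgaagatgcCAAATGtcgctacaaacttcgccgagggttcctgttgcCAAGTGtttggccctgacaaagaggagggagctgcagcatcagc
Myl4, chr11:104550413-104550712, plus strand: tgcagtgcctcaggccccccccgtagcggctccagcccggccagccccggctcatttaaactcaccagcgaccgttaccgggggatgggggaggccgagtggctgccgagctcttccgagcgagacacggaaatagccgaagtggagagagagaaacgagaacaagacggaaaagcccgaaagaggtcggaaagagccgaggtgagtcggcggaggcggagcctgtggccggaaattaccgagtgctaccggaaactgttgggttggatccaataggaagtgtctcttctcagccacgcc
Tnnt2, first window, chr1:135836084-135836383, plus strand: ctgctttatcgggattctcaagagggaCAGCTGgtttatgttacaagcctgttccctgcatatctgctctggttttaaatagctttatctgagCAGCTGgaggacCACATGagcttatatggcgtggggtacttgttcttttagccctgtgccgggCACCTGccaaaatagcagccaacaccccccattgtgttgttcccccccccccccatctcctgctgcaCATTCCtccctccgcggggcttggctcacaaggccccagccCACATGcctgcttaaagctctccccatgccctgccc
Actc1, chr2:114052826-114053125, minus strand: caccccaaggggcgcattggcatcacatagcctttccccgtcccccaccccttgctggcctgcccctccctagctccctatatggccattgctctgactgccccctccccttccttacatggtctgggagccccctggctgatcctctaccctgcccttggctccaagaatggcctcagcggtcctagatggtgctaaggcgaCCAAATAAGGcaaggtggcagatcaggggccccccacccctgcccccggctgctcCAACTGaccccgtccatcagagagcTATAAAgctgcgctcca

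Positions are counted from the start site as 1, with -1 as the base before it. An E-box match was found in 5 of the 6 windows, all but that of Myl4, which had no match to any of the 5 motifs, and also in 72.3% of all 32851 windows in the table. Unlike the other windows shown, that of Myl4 (chr11:104550413-104550712) does not reach the 5′ end of its gene span, 104546017, and so lies at an internal start site. The Myh3 window held a TATA box at -29 to -24. The Myh8 window held a MEF2 match at -99 to -90, a motif present in 3.19% of all windows, and a TATA box match on the opposite strand at -96 to -91 overlaps it. In the first Tnnt2 window an MCAT match stood at -27 to -22 beside 5 E-box matches, and MCAT occurs in 14.7% of all windows. The Actc1 window held a CArG box at -47 to -38, a motif found in 1.63% of all windows, and a TATA box at 34 to 39. TATA box matches occur in 13.6% of all windows. These matches are letters in a sequence, and binding was not measured.

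Label checks came first. B4galnt2 had a log2 intensity of 4.61 and 4.94 in wild-type muscle and 13.2 to 13.3 in the 4 transgenic arrays, 10.54 and 10.56 in AAV muscle and 5.27 and 4.26 in PBS muscle. The mdx arrays gave 3.86 and 7.78, so mdx replicate 2 stood above the other 3 arrays without the transgene in its set. Dmd fell by 2.82 on the log2 scale in mdx against wild type (SE 0.20). In Galgt2 transgenic mdx muscle Dmd was 1.54 ± 0.20 above mdx (adjusted p = 0.00305), fell by 1.29 on the log2 scale against wild type (adjusted p = 0.00435), and was not called against Galgt2 transgenic muscle (-1.20 ± 0.20, adjusted p = 0.13). In the first set the summed intensity of 7 skeletal muscle markers was 81280 to 85770 in wild-type and 80460 to 81610 in mdx muscle. It was lower in both transgenic groups, 70370 to 78570 in Galgt2 transgenic and 68070 to 71210 in Galgt2 transgenic mdx muscle. In the second set it was 40540 to 44890. These sums were not tested. Array medians were 57.69 to 63.95 in the first set and 25.35 to 25.71 in the second, and levels were set side by side only inside a set. Replicates correlated at r = 0.977 (mdx) to 0.993 (AAV) over all genes. The log2 ratio of the Gapdh 3′ to 5′ probe sets, a measure of RNA quality, was 0.18 to 0.48 in the first set except 1.23 in Galgt2 transgenic mdx replicate 2.

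Both developmental myosin heavy chains were low in wild-type muscle and high in the 3 other groups of the first set. Wild-type arrays had log2 intensities of 6.19 and 6.36 for Myh3, mdx arrays 10.32 and 10.42, with 9.83 and 8.86 in Galgt2 transgenic and 9.86 and 10.20 in Galgt2 transgenic mdx muscle. Every array of the last 3 groups lay above both wild-type arrays. Myh3 rose by 4.10 ± 0.53 in mdx (log2 difference ± SE, 17.1-fold, adjusted p = 0.00402), by 3.07 ± 0.53 in Galgt2 transgenic (8.39-fold, adjusted p = 0.0113) and by 3.75 ± 0.53 in Galgt2 transgenic mdx muscle (13.5-fold, adjusted p = 0.00215), each against wild type. These and all later p-values are from limma, a linear model with moderated variances, two-sided and adjusted by Benjamini-Hochberg over 18194 genes, and a difference is called where the adjusted p is under 0.05. The Galgt2 transgenic call for Myh3 was lost without wild-type replicate 1 (2.98, adjusted p = 0.0889), wild-type replicate 2 (3.15, adjusted p = 0.0743) or Galgt2 replicate 1 (2.58, adjusted p = 0.0832).

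For Myh8, the perinatal heavy chain, wild-type arrays had 5.09 and 5.65, mdx arrays 10.00 and 8.96, with 9.24 and 8.75 in Galgt2 transgenic and 9.78 and 10.27 in Galgt2 transgenic mdx muscle. The wild-type arrays were again the low ones, and mdx replicate 2 lay within the range of the Galgt2 transgenic arrays. Myh8 rose by 4.11 ± 0.40 in mdx (17.3-fold, adjusted p = 0.00171), 3.63 ± 0.40 in Galgt2 transgenic (12.3-fold, adjusted p = 0.00107) and 4.66 ± 0.40 in Galgt2 transgenic mdx muscle (25.2-fold, adjusted p = 0.00016).

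Myl4, the embryonic light chain, rose in the same 3 groups. Wild-type arrays had 9.38 and 9.30, mdx arrays 12.56 and 12.33, with 12.36 and 12.18 in Galgt2 transgenic and 12.46 and 12.75 in Galgt2 transgenic mdx muscle. The 6 arrays that were not wild type lay within 0.57 of each other and all above wild type. Against wild type the log2 difference was 3.11 ± 0.37 in mdx (8.61-fold, adjusted p = 0.003), 2.93 ± 0.37 in Galgt2 transgenic (7.64-fold, adjusted p = 0.00214) and 3.27 ± 0.37 in Galgt2 transgenic mdx muscle (9.63-fold, adjusted p = 0.000628).

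Tnnt2, the cardiac troponin T of the thin filament, had 6.36 and 6.25 on the wild-type arrays, 10.10 and 10.14 on the mdx arrays, 10.95 and 10.55 in Galgt2 transgenic and 11.20 and 11.30 in Galgt2 transgenic mdx muscle. No 2 of these groups overlapped, with mdx below both groups that carry the transgene. A lack of overlap between groups of 2 arrays says little by itself. In Galgt2 transgenic mdx against Galgt2 transgenic muscle it held for 29.9% of all genes, and for other pairs of groups that share was not computed. Tnnt2 rose by 3.82 ± 0.43 in mdx (14.1-fold, adjusted p = 0.00256), by 4.45 ± 0.43 in Galgt2 transgenic (21.8-fold, adjusted p = 0.000545) and by 4.94 ± 0.43 in Galgt2 transgenic mdx muscle (30.8-fold, adjusted p = 0.000165), against wild type. Its rank by size among all genes was 16, 9 and 8 in these 3 comparisons.

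Actc1, cardiac alpha actin, followed another pattern. On the wild-type arrays Myh3, Myh8 and Tnnt2 stood at or below percentile 44.5 of all genes, and Myl4 at 74.6 and 74. Actc1 was already high there, at 98.9 and 99.3, so its replacement in adult muscle was not seen with this probe set. Wild-type muscle had 12.81 and 12.92, mdx 13.11 and 13.05, Galgt2 transgenic 11.90 and 11.31, and Galgt2 transgenic mdx muscle 10.55 and 11.16. By group mean mdx was highest, though not called against wild type, and both transgenic groups lay below wild type. In mdx the difference from wild type was 0.22 ± 0.26 (95% interval -0.36 to 0.79, adjusted p = 0.734). Actc1 fell by 1.26 on the log2 scale in Galgt2 transgenic muscle (SE 0.26, 2.4-fold lower, adjusted p = 0.0269) and by 2.01 in Galgt2 transgenic mdx muscle (SE 0.26, 4.03-fold lower, adjusted p = 0.00138). The first of these calls was lost without wild-type replicate 1 (-1.32, adjusted p = 0.13), wild-type replicate 2 (-1.20, adjusted p = 0.178) or Galgt2 replicate 2 (-0.97, adjusted p = 0.177), and in a fit of the first array set alone (adjusted p = 0.0797).

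**Figure D1:**
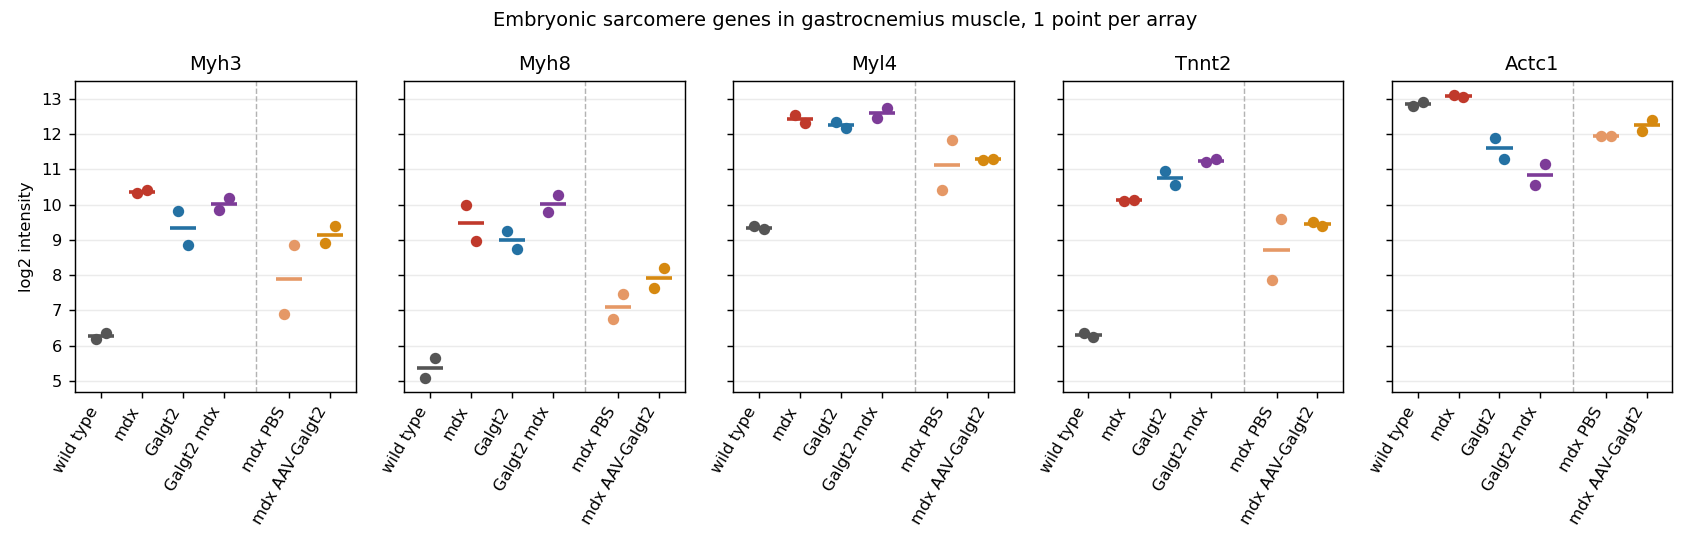
Log2 intensity (vertical axis) of the brightest probe set of each gene on the 12 muscle arrays, 1 point per array with a bar at the mean of the 2 arrays of a group. The dashed line separates the array sets, whose levels are not comparable. In the first set Myh3, Myh8, Myl4 and Tnnt2 are lowest in both wild-type arrays, and Actc1 is lower in both transgenic groups than in wild type. The 2 PBS arrays lie far apart for Myh3, Myl4 and Tnnt2.

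In counts, 4 of 5 genes rose in mdx, where 3.75% of all genes tested were called higher. In Galgt2 transgenic muscle 4 of 5 rose and 1 fell, where 2.12% of all genes were called higher and 1.03% lower. In Galgt2 transgenic mdx muscle it was again 4 and 1, where 4.91% of all genes were called higher and 2.36% lower. The median log2 difference of the 5 genes was 3.82, 3.07 and 3.75 in these comparisons, against 0.01, -0.05 and 0.01 over all genes. The 3 comparisons share the 2 wild-type arrays. The counts for mdx and for Galgt2 transgenic mdx muscle stayed the same without any single array, mdx replicate 2 with its high B4galnt2 level included, while that for Galgt2 transgenic muscle was 3 without either wild-type array.

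In mdx muscle the transgene came with a fall of Actc1 and with no call for the other 4 genes. Against mdx, Myh3 differed by -0.34 ± 0.53 (95% interval -1.51 to 0.83, adjusted p = 0.801), Myh8 by 0.55 ± 0.40 (-0.33 to 1.42, adjusted p = 0.503) and Myl4 by 0.16 ± 0.37 (-0.65 to 0.97, adjusted p = 0.877). These intervals leave room for differences of up to 2-fold or more in Myh3 and Myh8. Tnnt2 differed by 1.13 ± 0.43 (0.18 to 2.07, adjusted p = 0.156), with no overlap between the groups, for which the share of all genes was not computed. It was called in a fit of the first set alone (adjusted p = 0.0343) and without PBS replicate 1 or 2 (adjusted p = 0.0148 each). The PBS arrays enter this comparison through the shared variance, and they differ from each other by 1.73 in Tnnt2. Actc1 fell by 2.23 on the log2 scale (SE 0.26, 4.68-fold lower, adjusted p = 0.00151), rank 37 of 18194 by size of the fall. It was the 1 of 5 genes called, where 2.11% of all genes were called lower and 3.97% higher. Without replicate 2 of the Galgt2 transgenic mdx group, the array with the highest Gapdh ratio, Actc1 differed by -2.53, and it passed with each single array left out.

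Adding mdx to the transgene gave no call. Against Galgt2 transgenic muscle, Galgt2 transgenic mdx muscle differed by 0.68 ± 0.53 in Myh3, 1.03 ± 0.40 in Myh8, 0.33 ± 0.37 in Myl4, 0.50 ± 0.43 in Tnnt2 and -0.75 ± 0.26 in Actc1 (adjusted p = 1 for each). The arrays of the 2 groups did not overlap for any of the 5 genes, with Actc1 the lower one in Galgt2 transgenic mdx muscle, and 29.9% of all genes likewise had no overlap in this comparison. Only 10 of all genes were called in this comparison, 0.055%, and 708 had an unadjusted p under 0.05.

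The interaction of transgene and mdx, the transgene's log2 difference in mdx muscle minus that in normal muscle, was below 0 for all 5 genes. It was -3.41 ± 0.75 for Myh3 (adjusted p = 0.116), -3.08 ± 0.56 for Myh8, -2.77 ± 0.52 for Myl4 and -3.32 ± 0.60 for Tnnt2 (adjusted p = 0.101 for each of these 3), and -0.96 ± 0.37 for Actc1 (adjusted p = 0.326). None passed, beside 8 called genes or 0.044% of all, and 2168 genes had an unadjusted p under 0.05. The PBS arrays enter this test through the shared variance: without PBS replicate 1, and likewise without PBS replicate 2, Myh3 (adjusted p = 0.0228), Myh8 (adjusted p = 0.0479), Myl4 and Tnnt2 (adjusted p = 0.0111 each) passed at the same log2 values. In a fit of the first set alone Myl4 and Tnnt2 passed (adjusted p = 0.0452 each).

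**Figure D2:**
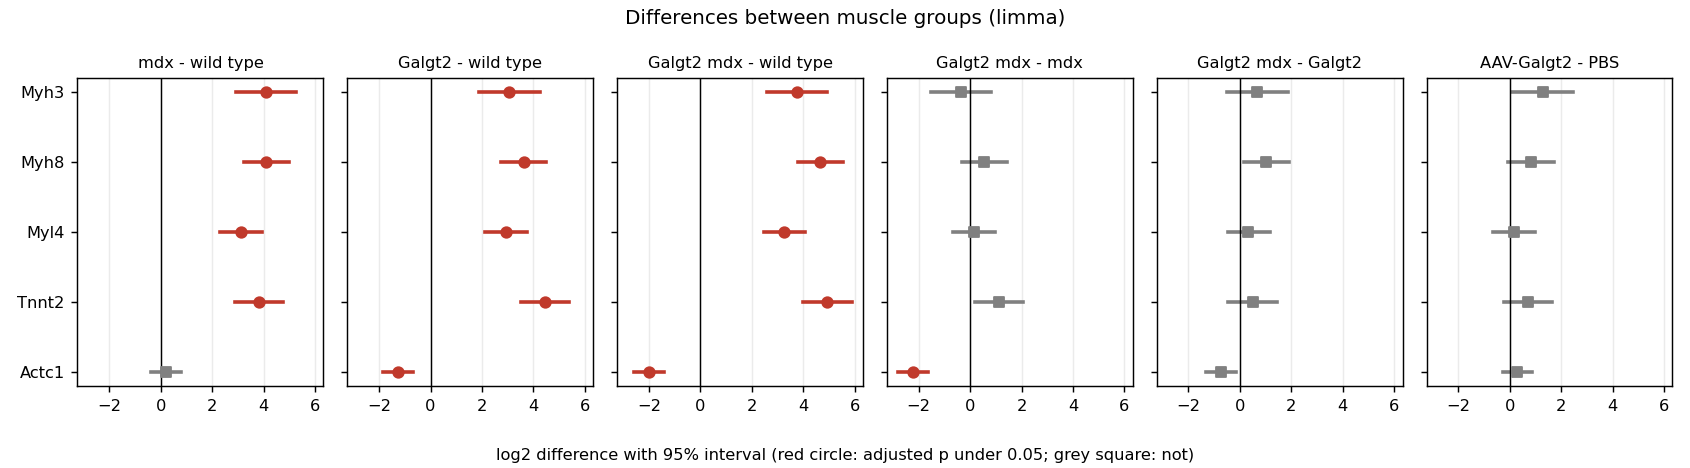
Log2 difference (horizontal axis) with its 95% interval from limma for each gene in 6 comparisons of muscle groups with 2 arrays each. Red circles passed an adjusted p of 0.05 and grey squares did not. Myh3, Myh8, Myl4 and Tnnt2 lie between 2.93 and 4.94 against wild type, and Actc1 lies at -1.26, -2.01 and -2.23 where a transgenic group is set against wild type or mdx.

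The levels in the first set can be put in order by group mean. For Myh3 the order was mdx, Galgt2 transgenic mdx, Galgt2 transgenic, wild type, and of these neighbours only the last pair differed by the test. For Myh8 and Myl4 it was Galgt2 transgenic mdx, mdx, Galgt2 transgenic, wild type, with the mdx and Galgt2 transgenic arrays overlapping and wild type apart from Galgt2 transgenic. For Tnnt2 the order was Galgt2 transgenic mdx, Galgt2 transgenic, mdx, wild type, where the middle pair did not overlap and its difference was not tested. The share of all genes without overlap was not computed for that pair. Actc1 ran from mdx through wild type and Galgt2 transgenic to Galgt2 transgenic mdx, and only wild type and Galgt2 transgenic differed by the test among those neighbours.

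AAV delivery of Galgt2 to mdx muscle gave no call in any gene. Myh3 had 8.92 and 9.38 in AAV muscle and 6.89 and 8.86 in PBS muscle, and Myh8 had 7.64 and 8.21 against 6.75 and 7.45. Both genes were higher in each AAV array than in each PBS array. Myl4 had 11.28 and 11.30 in AAV against 10.42 and 11.84 in PBS muscle, and Tnnt2 had 9.50 and 9.38 against 7.86 and 9.59. For these 2 genes the AAV arrays lay between the PBS arrays, which were far apart. Actc1 had 12.10 and 12.41 in AAV and 11.96 and 11.95 in PBS muscle, with no overlap. The share of all genes without overlap was not computed for this comparison. It was 29.9% in Galgt2 transgenic mdx against Galgt2 transgenic muscle.

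The AAV differences were 1.28 ± 0.53 for Myh3 (95% interval 0.10 to 2.45, adjusted p = 0.56), 0.83 ± 0.40 for Myh8 (-0.05 to 1.71, adjusted p = 0.627), 0.16 ± 0.37 for Myl4 (adjusted p = 0.967), 0.72 ± 0.43 for Tnnt2 (adjusted p = 0.709) and 0.30 ± 0.26 for Actc1 (adjusted p = 0.822). The share of all genes called was 0%, and 1506 genes had an unadjusted p under 0.05. Without PBS replicate 1 the difference was 0.29 in Myh3, 0.48 in Myh8, -0.55 in Myl4 and -0.14 in Tnnt2, while Actc1, whose PBS arrays were alike, kept 0.30. Without PBS replicate 2, Myh3 (2.26, adjusted p = 0.0396) and Tnnt2 (1.58, adjusted p = 0.0292) passed.

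Where a gene had several probe sets, the brightest was used. Against wild type the second Tnnt2 probe set rose by 3.50 in mdx, 4.33 in Galgt2 transgenic and 4.76 in Galgt2 transgenic mdx muscle, each passing over all probe sets. The third Tnnt2 probe set was dim and differed by 0.95, 1.10 and 0.95, with no call, and the second Myl4 probe set was dim and differed by 0.18, 0.03 and 0.27, with no call.

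No adult fast counterpart of these genes was called. All 12 adult fast genes stood at or above percentile 97.8 of all genes on every muscle array, and Actc1 at 98.9 to 99.6 in wild-type and mdx muscle. How the probes respond at that brightness was not tested. Acta1, the adult skeletal actin, differed from wild type by -0.02 in mdx and -0.04 in Galgt2 transgenic muscle, Myl1 by 0.00 and 0.03, Tnnt3 by 0.00 and -0.06 and Myh4, a fast adult myosin, by -0.10 and -0.25. Of 12 adult fast sarcomere genes 0 passed in any of the 7 comparisons, with list medians of -0.11 to 0.08. The gene of smallest p was Myh4 in mdx (adjusted p = 0.847), Actn3, the alpha actinin of fast fibres, in Galgt2 transgenic muscle (-0.45 ± 0.19, adjusted p = 0.293), and Mybpc2, fast myosin binding protein C, in Galgt2 transgenic mdx muscle (-0.59 ± 0.20, adjusted p = 0.114), each against wild type. With a variance trend in limma Mybpc2 passed (adjusted p = 0.0248). Actn3 in Galgt2 transgenic mdx against mdx (-0.54 ± 0.19, adjusted p = 0.121) passed under 2 of 21 alternative settings.

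Slow fibre genes passed in small numbers. Of 10 adult slow sarcomere genes 1 rose in mdx against wild type (median 0.02), 2 in Galgt2 transgenic (median 0.49) and 2 in Galgt2 transgenic mdx muscle (median 0.60), and 1 rose in Galgt2 transgenic mdx against mdx (median 0.32). Of all genes 3.75%, 2.12%, 4.91% and 3.97% were called higher in these 4 comparisons. Tnni1, the slow troponin I that is also a developmental form, rose by 1.13 ± 0.29, 2.25 ± 0.29, 2.30 ± 0.29 and 1.16 ± 0.29 in these comparisons. Tnnt1, slow troponin T, rose by 1.23 ± 0.29 in Galgt2 transgenic and by 1.16 ± 0.29 in Galgt2 transgenic mdx muscle. The Tnni1 rises of 2.25 and 2.30 kept their call without any 1 of the 12 arrays. Those of 1.13 and 1.16 lost their call without 11 and 9 of the 12 arrays (0.72 to 1.54 and 0.76 to 1.57), and those of Tnnt1 without 11 and 4 of them (0.89 to 1.56 and 0.90 to 1.43).

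Sarcomere assembly factors were measured as a list of 20 genes, chaperones, actin filament caps and Z-disc proteins among them. None passed in mdx against wild type (median -0.12, smallest p for the giant thin filament protein Neb at -0.62 ± 0.22, adjusted p = 0.136). In Galgt2 transgenic muscle 2 rose (median 0.12), Csrp3, a Z-disc LIM protein, by 1.44 ± 0.32 and Lmod2, an actin filament nucleator, by 1.06 ± 0.20. Against mdx, Galgt2 transgenic mdx muscle had 2 higher and 1 lower (median 0.14): Xirp1, an actin-binding repeat protein, rose by 1.5 ± 0.39, Lmod2 rose by 0.83 ± 0.20 and Tcap, telethonin, fell by 1.06 on the log2 scale. Against wild type the same group had Xirp1 and Csrp3 higher (1.55 ± 0.39 and 1.38 ± 0.32) and Tcap lower (-1.21 ± 0.27, median 0.19). Each of these 8 calls was lost without at least 3 of the 12 arrays, and the fragile ones were Xirp1 and Tcap against mdx, lost without 11 (0.83 to 2.17) and 10 (-1.32 to -0.80). Among all genes, 3.75% were called higher in mdx and 2.12% in Galgt2 transgenic against wild-type muscle. In Galgt2 transgenic mdx muscle 3.97% were higher and 2.11% lower against mdx, and 4.91% higher and 2.36% lower against wild type.

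Genes of new fibres and myoblast fusion were called in all 3 comparisons with wild type. In mdx against wild type 8 of 14 rose and all 14 differences were positive (median 1.61): Mymx and Mymk, both fusion proteins of the myoblast membrane, rose by 4.83 ± 0.60 and 3.29 ± 0.32, and Ankrd1, a stress-responsive titin-binding protein, by 2.78 ± 0.58. In Galgt2 transgenic muscle 5 of 14 rose (median 1.15), with Mymx at 3.65 ± 0.60, the cell cycle inhibitor Cdkn1a at 2.80 ± 0.30 and Myog, the differentiation factor myogenin, at 2.32 ± 0.46. In Galgt2 transgenic mdx muscle 7 of 14 rose against wild type (median 1.24), with Mymx at 3.82 ± 0.60, Ankrd1 at 3.38 ± 0.58 and Cdkn1a at 2.88 ± 0.30. Of all genes 3.75%, 2.12% and 4.91% were called higher in these comparisons with wild type, and the medians of all genes were 0.01, -0.05 and 0.01. Against mdx only Cdkn1a rose in Galgt2 transgenic mdx muscle (1.46 ± 0.30), where 3.97% of all genes were called higher, and the list median was -0.14. Ankrd1 lost its call in mdx without wild-type replicate 1 or 2 or mdx replicate 2 (2.34 to 3.21 over all 12) and in Galgt2 transgenic mdx muscle without wild-type replicate 2. Mymx (3.15 to 4.14) and Myog (1.96 to 2.69) in Galgt2 transgenic muscle lost theirs without 2 and 4 of the 12 arrays, and Cdkn1a against mdx (1.33 to 1.60) without 4.

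Macrophage markers were also below 0 in the interaction, 9 of 10 of them (median -2.03), and Lgals3 (-4.70 ± 0.61, adjusted p = 0.0374) and Tyrobp (-2.82 ± 0.38, adjusted p = 0.0429) were 2 of the 8 genes called there. Both calls were lost with some arrays left out, Lgals3 without 8 of 12 (-5.17 to -4.23) and Tyrobp without 7 (-3.12 to -2.51). Their part in the interaction of the sarcomere genes was not tested. In the interaction all 14 new fibre genes were negative like the 5 sarcomere genes, with a median of -1.48 against 0.05 for all genes and 0 of 14 passing. The smallest p was that of Mymk (-3.11 ± 0.45, adjusted p = 0.0558), which passed without mdx replicate 1, Galgt2 replicate 2 or either PBS array. In AAV against PBS muscle all 14 were positive with 0 passing, and the median was 0.72, the same as for the 5 sarcomere genes. The smallest p was that of Chrng, the fetal acetylcholine receptor subunit (1.00 ± 0.34, adjusted p = 0.465).

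**Figure D3:**
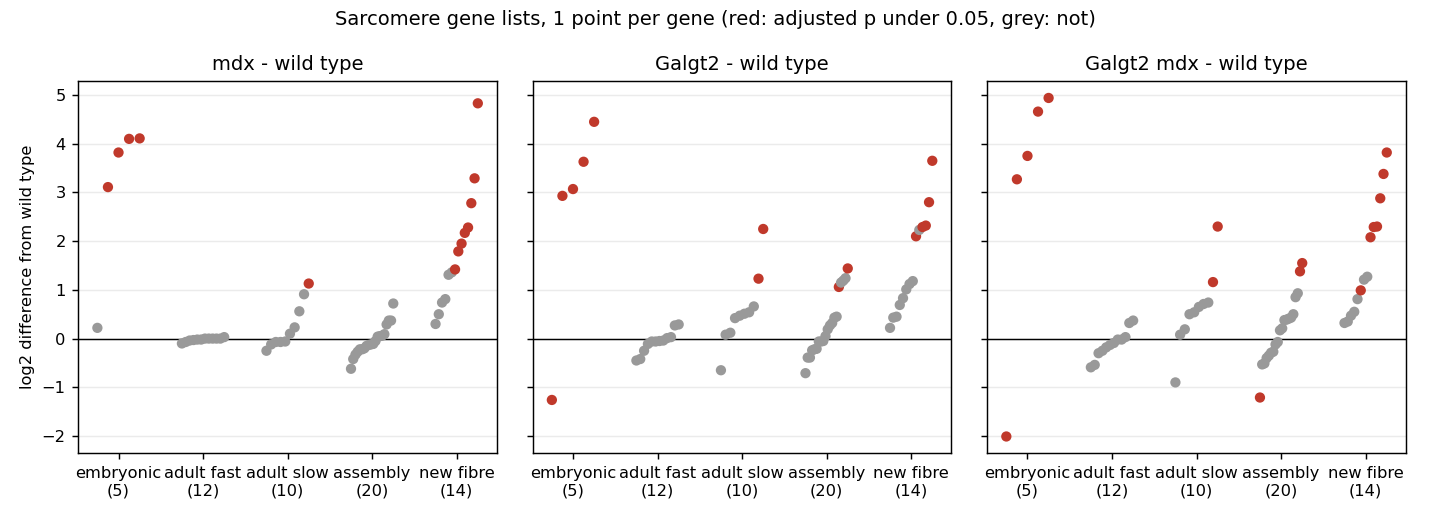
Log2 difference from wild type (vertical axis) of each gene in 5 lists, ordered by value within a list, for mdx muscle and both transgenic groups, with 2 arrays each. Red points passed an adjusted p of 0.05 and the numbers below are genes measured. The 12 adult fast genes lie near 0 while 4 of 5 embryonic genes lie above 2.9, and the low red embryonic point is Actc1.

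Among 19 regulators of developmental sarcomere genes few were called. In mdx Eya1, a cofactor of homeobox factors in muscle precursors, fell by 1.92 on the log2 scale (SE 0.18, adjusted p = 0.00171), the 1 of 19 that passed, where 1.69% of all genes were called lower. In Galgt2 transgenic muscle Myf5, a myogenic determination factor, rose by 1.10 ± 0.22 and Sox6, a repressor of slow fibre genes, fell by 0.95 on the log2 scale. In Galgt2 transgenic mdx muscle 2 rose and 2 fell against wild type: Tead4, a factor that binds MCAT motifs, rose by 1.48 ± 0.33, Myf5 rose by 1.24 ± 0.22, and Sox6 fell by 1.40 on the log2 scale. Against mdx, Myf5 (1.13 ± 0.22) and Eya1 (1.12 ± 0.18) rose there. In these 3 comparisons of transgenic groups 2.12%, 4.91% and 3.97% of all genes were called higher, and 1.03%, 2.36% and 2.11% lower. Eya1 in mdx and Sox6 in Galgt2 transgenic mdx muscle passed with each array left out. Sox6 in Galgt2 transgenic muscle lost its call without any 1 of the 12 arrays (-1.19 to -0.71), Tead4 without 4 (1.31 to 1.66), Myf5 without 3 to 4 (0.81 to 1.44) and Eya1 against mdx without Galgt2 transgenic mdx replicate 2.

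Markers of other cell types were read beside these results. Of 11 heart markers 0 passed in any comparison, and none stood above percentile 48.3 of all genes on any muscle array. Their sums are therefore sums of dim probe sets. The summed intensity ran from 267.9 to 311.8 on wild-type arrays, 257.6 to 302.5 on mdx arrays, 279.9 to 289.9 in Galgt2 transgenic and 367.2 to 370.4 in Galgt2 transgenic mdx muscle. Myh6, atrial myosin, differed most there, by 1.87 ± 0.54 against mdx (adjusted p = 0.0703), and by 1.00 at its lowest under the other settings. This Myh6 difference passed under 2 of 20 alternative settings. The heart marker sums of mdx and of Galgt2 transgenic muscle overlapped or lay within the wild-type range, and those of Galgt2 transgenic mdx muscle lay above it. The part of heart-type expression in the Tnnt2 result was not tested. Of 7 smooth muscle markers, Acta2, smooth muscle actin, fell by 0.98 on the log2 scale in Galgt2 transgenic mdx against mdx, the comparison in which Actc1 fell (lost without 8 of 12 arrays, -1.13 to -0.83). The smooth muscle sum was 4282 to 5172 in mdx and 2693 to 2994 in Galgt2 transgenic mdx muscle. Its part in the Actc1 result was not tested. The skeletal muscle marker Ckm, muscle creatine kinase, fell by 0.96 in the same comparison (lost without mdx replicate 2 or Galgt2 transgenic mdx replicate 2). Against wild type, Ckm fell by 1.03 on the log2 scale in Galgt2 transgenic mdx muscle (adjusted p = 0.0167, lost without 3 of 12 arrays). The part of a lower muscle signal in the Actc1 result was not tested.

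Macrophage markers moved with the myosins in mdx. Of 10, 8 rose in mdx against wild type (median 2.62), with Lgals3 at 4.75 ± 0.43, Cd68 at 4.21 ± 0.56 and Tyrobp at 3.08 ± 0.27, all 3 passing with each array left out. In Galgt2 transgenic muscle 3 rose (median 1.09), and in Galgt2 transgenic mdx against mdx 3 fell (median -1.17), Tyrobp by 1.66, Adgre1 by 1.13 and Lyz2 by 1.04 on the log2 scale. Among all genes, 3.75% were called higher in mdx and 2.12% in Galgt2 transgenic muscle, and 2.11% lower in Galgt2 transgenic mdx against mdx. Of the calls in Galgt2 transgenic muscle Lgals3 passed with each array left out, while Ctss lost its call without 3 of 12 (0.95 to 1.71) and Tyrobp without 9 (0.85 to 1.46). Against mdx, Tyrobp lost its call without Galgt2 transgenic mdx replicate 2, Adgre1 without 10 of 12 (-1.37 to -0.89) and Lyz2 without 7 (-1.34 to -0.73). Their summed intensity was 6112 to 6461 on wild-type arrays, 32100 to 36570 on mdx arrays, 11450 to 16840 in Galgt2 transgenic and 16970 to 17050 in Galgt2 transgenic mdx muscle. Lgals3, which enters these sums, was not particular to macrophages: it stood at 11.86 to 12.55 on the 4 C2C12 arrays. The other macrophage markers stood at or below 7.35 on those arrays. In Galgt2 transgenic mdx against mdx, Myh3, Myh8, Myl4 and Tnnt2 were not called and Actc1 fell. In the second set the macrophage sum was 12160 to 14310 in AAV and 11170 to 16270 in PBS muscle. Of 6 satellite cell markers 0 passed in mdx, 1 rose in Galgt2 transgenic muscle (Myf5) and 3 in Galgt2 transgenic mdx muscle against wild type. In these comparisons 3.75%, 2.12% and 4.91% of all genes were called higher. The satellite cell sum ran from 5927 to 6184 on wild-type arrays, 6285 to 6783 on mdx arrays, 8976 to 9303 in Galgt2 transgenic and 7194 to 10030 in Galgt2 transgenic mdx muscle. The part of any of these cell types in the sarcomere gene results was not tested.

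Across the 8 arrays of the first set the levels of Myh3, Myh8, Myl4 and Tnnt2 ran together, with Pearson r of 0.93 to 0.98 over their 6 pairs, while r with Actc1 was -0.32 to -0.62. These values describe 8 arrays of 4 groups that share their group differences. By the same measure, among 2537 genes with group means spanning at least 1 on the log2 scale, those most like Myh3 were Pycard (0.987), H2-Aa (0.984), Agpat2 (0.983) and Plxnb2 (0.980). Myh8 was most like Agpat2 (0.992), Plxnb2 (0.987), Myl4 (0.985) and Myh3 (0.966). Myl4 was most like Myh8 (0.985), Plxnb2 (0.982), Tnnt2 (0.980) and Chrna1 (0.977). Tnnt2 was most like Tubb6 (0.994), E2f8 (0.988), S100a4 (0.985) and Timp1 (0.984). Actc1 had none of these among its nearest genes, which were Avpr1a (0.988), Ptx3 (0.981), Igfbp3 (0.979) and Kcng4 (0.975).

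In the C2C12 arrays, 1 per condition and so with no test, the 2 cell pairs ran opposite ways. Myh3 was at 12.46 on the array labelled C2C12 myoblast and 11.48 on that labelled C2C12 myotube, and at 10.93 and 12 on the arrays labelled C2C12-Galgt2 myoblast and myotube. Myh8 was at 10.06 and 5.94 on the C2C12 pair, and at 4.96 and 9.60 on the C2C12-Galgt2 pair. The arrays labelled C2C12 myoblast and C2C12-Galgt2 myotube were thus the high ones for both myosins. Myl4 was at 13.45, 12.36, 11.60 and 13.26 in that order of arrays, Tnnt2 at 13.23, 12.23, 12.28 and 13.14, and Actc1 at 13.10, 11.89, 11.04 and 13.04. The same 2 arrays were the high ones for all 3, Actc1 included.

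The array labelled C2C12 myotube minus the array labelled C2C12 myoblast gave a log2 difference of -0.98 in Myh3, -4.12 in Myh8, -1.09 in Myl4, -1 in Tnnt2 and -1.21 in Actc1. At a size of at least 2-fold that is 4 of 5 genes lower (all but Myh3, which lies just under it, with Tnnt2 at the limit), where 4.27% of all genes were lower. In the transfected pair the array labelled myotube was higher by 1.07 in Myh3, 4.64 in Myh8 (24.9-fold), 1.66 in Myl4, 0.86 in Tnnt2 and 2.00 in Actc1, 4 of 5 at 2-fold or more where 3.35% of all genes were. The untransfected pair goes against its labels in muscle markers generally: 6 of 7 skeletal muscle markers were at least 2-fold lower on the array labelled myotube, and Myh4 was at 9.62 on the array labelled myoblast and 4.40 on that labelled myotube. In the transfected pair 5 of 7 were at least 2-fold higher on the array labelled myotube. Whether the labels of the C2C12 pair were exchanged was not tested, and no direction of differentiation or of Galgt2 is drawn from it.

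Set by label, the C2C12-Galgt2 myoblast array was lower than the C2C12 myoblast array by at least 2-fold in 4 of 5 genes (-5.10 for Myh8, -2.06 for Actc1, -1.85 for Myl4, -1.53 for Myh3, and -0.95 for Tnnt2 under that size), where 3.56% of all genes were lower. The C2C12-Galgt2 myotube array was higher than the C2C12 myotube array by at least 2-fold in 2 of 5 genes, Myh8 (3.66) and Actc1 (1.15), where 4.51% of all genes were higher. Of the 14 new fibre genes, 2 were at least 2-fold lower on the array labelled C2C12 myotube than on that labelled C2C12 myoblast (median -0.30, against 0.02 for all genes), and 0 reached 2-fold between the transfected arrays (median 0.11, against -0.09 for all genes).

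**Figure D4:**
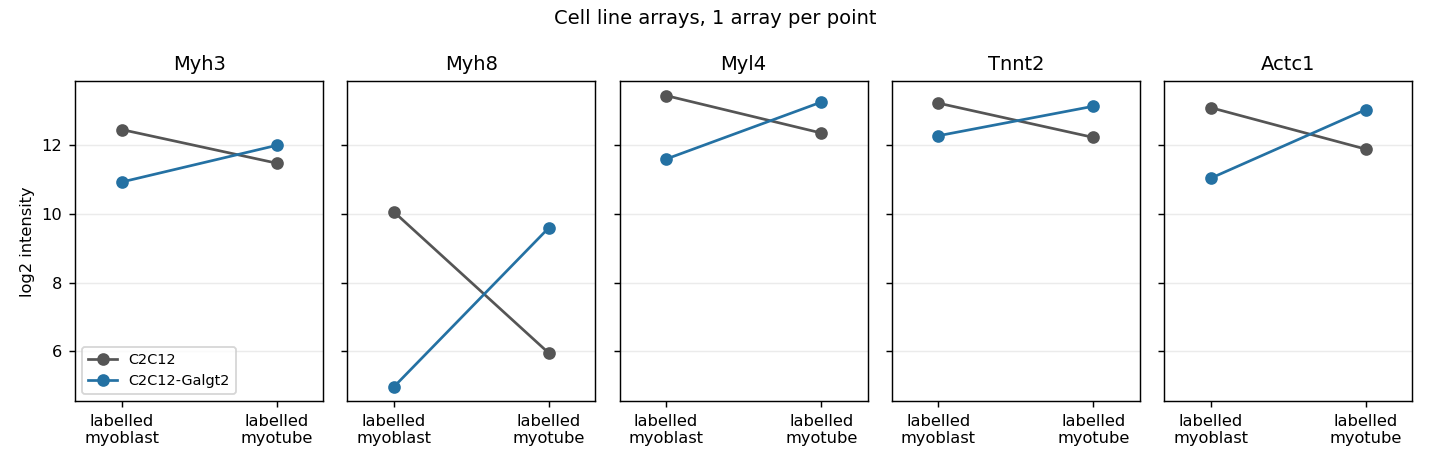
Log2 intensity (vertical axis) of each gene on the 4 cell line arrays, 1 array per point, with lines joining the arrays labelled myoblast and myotube of C2C12 (grey) and C2C12-Galgt2 (blue) cells. The lines cross for all 5 genes, and Myh8 has the widest gaps, 10.06 to 5.94 and 4.96 to 9.60.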

How the data were processed

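Gene expression was measured on 16 arrays, 12 of muscle and 4 of C2C12 cells, the labels naming 25 ng of total RNA as input. The deposited intensity values, 1 per probe set and array, come from GCOS and RMA per the submitters' processing notes, with no versions, and whether the 3 array sets were normalised together is not given in the sources used here. They were taken as linear and converted to log2. Of 45101 probe sets 34958 carry 1 gene symbol in the supplied annotation, and the 932 with several and 9211 with none were left out. A gene was represented by its brightest probe set on average, chosen over the muscle arrays and separately over the cell line arrays.

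A limma model (version 3.58.1, R 4.3.3) of 6 group means covered the 12 muscle arrays and gave 7 comparisons, and was tested on simulated data. No read depth exists, and 2 arrays per group limit the precision. Cell line arrays were compared at a size of 2-fold. The 5 genes, the gene lists, the comparisons and the alternatives were chosen with earlier results of these data known. Named from each list were up to 3 called genes with the largest log2 difference, or the gene of smallest p, and for likeness the 4 genes with the highest r. Alternatives were 9 other settings and 12 arrays left out in turn. Promoter windows are from RefSeq, GRCm38.p6, and the build of the array annotation is not given in the sources used here.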

Additional observations from a re-analysis of the deposited data

Results flagged for a closer look

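In the cell lines, every one of the 5 genes moved one way between the arrays labelled myoblast and myotube in C2C12 cells and the opposite way in C2C12-Galgt2 cells. The log2 difference of the transfected pair minus that of the untransfected pair was 2.05 for Myh3, 8.75 for Myh8, 2.75 for Myl4, 1.86 for Tnnt2 and 3.21 for Actc1. With 1 array per condition these differences were not tested, and skeletal muscle markers of the untransfected pair go against its labels.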

How the results depend on the processing

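The 5 genes in 7 comparisons were recomputed under 21 alternatives, which gave 735 values. Of these 710 kept direction and side of the threshold, 8 lost a call, 15 gained one and 2 changed sign, and 13 of the 15 called differences passed under every alternative. The exceptions were Myh3 and Actc1 in Galgt2 transgenic against wild-type muscle. The number of the 5 genes called there was 3 to 5 with an array left out. In Galgt2 transgenic mdx against mdx it was 2 in a fit of the first set alone and 1 to 2 with an array left out, in the interaction 2 and 0 to 4, and in AAV against PBS 0 to 2 with an array left out. With an array left out Myl4 ran from -0.55 to 0.87 and Tnnt2 from -0.14 to 1.58 in AAV against PBS, and in Galgt2 transgenic mdx against Galgt2 transgenic muscle Mybpc2 ran from -0.41 to 0.08, Tpm3 from -0.15 to 0.79 and Sdc4 from -1.34 to 0.06. Tpm1 changed sign in the interaction, from -0.11 to 0.01 with arrays shifted to one median and to 0.03 with quantile normalisation.

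With the replicate number as a block Actc1 in Galgt2 transgenic muscle lost its call (-1.26, adjusted p = 0.0775), the only call of the 5 genes it changed. The deviations of same-numbered arrays within a set correlated at r from -0.44 (wild type with mdx) to 0.54 (wild type with Galgt2 transgenic), not above 0 in every pair, so the numbers are not taken as pairs. Shifting arrays to one median moved the median of all genes from 0.01 to -0.13 in mdx against wild type, with 604 genes higher and 618 lower in place of 682 and 308, and from -0.05 to -0.16 in Galgt2 transgenic against wild type (336 and 254). In Galgt2 transgenic mdx against wild type it moved from 0.01 to -0.12 (721 and 616) and in the interaction from 0.05 to 0.16. All genes called ranged with an array left out from 132 to 1338 (990 with all arrays) in mdx, 184 to 653 (573) in Galgt2 transgenic and 434 to 1575 (1324) in Galgt2 transgenic mdx against wild type. They ranged from 311 to 1290 (1107) in Galgt2 transgenic mdx against mdx, 4 to 22 (10) against Galgt2 transgenic, 0 to 142 (8) in the interaction and 0 to 158 (0) in AAV against PBS. Under the other alternatives the counts were 582 to 1222, 365 to 632, 842 to 1447, 643 to 1258, 0 to 14, 0 to 20 and 0 in that order. In the cell lines log2(value + 16) moved Myh8 from 4.64 to 4.07 in the transfected pair and from -5.10 to -4.52 between the arrays labelled myoblast.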
